A study of Mus musculus with 16 samples.

Results

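UDP-glucuronosyltransferases, and the enzyme that makes the sugar donor they use, were measured in mouse liver by poly(A) RNA sequencing. They comprised 10 of the 24967 genes in the deposited count table: Ugt1a1, Ugt1a5, Ugt1a6a, Ugt1a6b and Ugt1a9, then Ugt2b1, Ugt2b34, Ugt2b35 and Ugt2b36, and Ugdh. They were taken by symbol, each gene being represented by its RefSeq transcript with the highest mean count. All 10 passed the filter on low counts, in a fit of 12911 genes. The 16 livers fell into 4 groups of 4. Wild-type mice were C57BL/6 Ntac, and the other strain was humanized PXR-CAR-CYP3A4/3A7, in which the mouse drug-sensing receptors CAR and PXR and mouse CYP3A genes are replaced by human ones. In each strain one group received TCPOBOP, a synthetic agonist of mouse CAR, at 3 mg/kg in 2 administrations 24 h apart. The other received vehicle (2% DMSO in corn oil), and livers were taken at 48 h. For sex, age, hour of collection and batch, no statement was found in the labels used. Each library is taken as 1 mouse.

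Glucuronidation attaches glucuronic acid to bilirubin, steroids, phenols and drugs, which makes them soluble enough for bile and urine. The donor, UDP-glucuronate, is made in the cytosol by UDP-glucose dehydrogenase, the product of Ugdh, and enters the endoplasmic reticulum, where the UGT enzymes face the lumen. Ugt1a genes are alternative first exons of a single locus, each with its own promoter and each spliced to the same set of downstream exons, whereas Ugt2b genes are separate genes in a cluster. Several of these genes are textbook targets of CAR, PXR and the aryl hydrocarbon receptor.

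The Ugt1a locus lies on mm10 chromosome 1, plus strand, where the shared exons start at 88215044 and the transcripts used end near 88218997. The 5 genes differ in their first exons, which carry the substrate-binding part of the enzyme, and share 4 downstream exons. The own exon that joins the shared part spans 88070800 to 88071678 for Ugt1a9 (NM_201644), 88106941 to 88107799 for Ugt1a6b (NM_201410) and 88138473 to 88139331 for Ugt1a6a (NM_145079). It spans 88166012 to 88166903 for Ugt1a5 (NM_201643) and 88211959 to 88212871 for Ugt1a1 (NM_201645). In the GENCODE vM21 transcripts the own part is 879 to 986 bases and the shared part 1311 bases, or 1317 bases for Ugt1a6b. The joins are shown because the values below turn on where the shared sequence begins. Each line gives the last 30 bases of the own exon in lower case and the first 30 bases of the shared exons in capitals:
Ugt1a1: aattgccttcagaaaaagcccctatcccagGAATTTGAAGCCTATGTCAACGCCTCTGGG
Ugt1a9: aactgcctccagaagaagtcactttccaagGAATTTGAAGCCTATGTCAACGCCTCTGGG
Ugt1a5: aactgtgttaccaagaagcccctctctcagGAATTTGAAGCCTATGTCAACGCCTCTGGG
Ugt1a6a: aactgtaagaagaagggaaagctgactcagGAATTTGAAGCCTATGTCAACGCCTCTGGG
Ugt1a6b: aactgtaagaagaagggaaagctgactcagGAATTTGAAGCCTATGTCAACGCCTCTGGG

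Ugt1a6a and Ugt1a6b are identical over the stretch shown. Of the 50-base words in the own part of either gene, 54.5% also occur in the other, so the split of reads between this pair is uncertain. For Ugt1a5 the share found in another gene was 7.95%, for Ugt1a9 6.63% and for Ugt1a1 0%. The Ugt2b genes and Ugdh lie on mm10 chromosome 5. Ugt2b34 (NM_153598) spans 86889767 to 86906937 and Ugt2b1 (NM_152811) 86916638 to 86926530, both on the minus strand. Ugt2b35 (NM_172881) spans 87000860 to 87013275 on the plus strand, Ugt2b36 (NM_001029867) 87065927 to 87092555 on the minus strand, and Ugdh (NM_009466) 65413221 to 65435949 on the minus strand. At most 2.07% of the 50-base words of a Ugt2b gene or Ugdh were found in a transcript of another gene.

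Sequence upstream of 4 members is shown because their own-exon or whole-gene values moved differently below. The bases are the 200 that precede the RefSeq start (GRCm38.p6), read along the gene's strand, with matches to the searched motifs in capitals:
Ugt1a1, chr1:88211759-88211958, plus strand: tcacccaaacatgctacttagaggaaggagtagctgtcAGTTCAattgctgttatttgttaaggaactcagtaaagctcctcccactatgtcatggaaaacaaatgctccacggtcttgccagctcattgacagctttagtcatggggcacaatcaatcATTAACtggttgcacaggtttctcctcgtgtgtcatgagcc
Ugt1a9, chr1:88070579-88070778, plus strand: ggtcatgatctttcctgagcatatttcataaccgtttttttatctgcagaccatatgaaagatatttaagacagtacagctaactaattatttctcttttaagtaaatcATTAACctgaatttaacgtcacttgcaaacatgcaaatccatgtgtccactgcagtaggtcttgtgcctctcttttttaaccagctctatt
Ugt1a6a, chr1:88134609-88134808, plus strand: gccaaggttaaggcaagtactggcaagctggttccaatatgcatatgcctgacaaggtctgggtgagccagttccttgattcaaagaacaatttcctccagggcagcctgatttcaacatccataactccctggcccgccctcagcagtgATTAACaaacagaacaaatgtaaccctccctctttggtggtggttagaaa
Ugdh, chr5:65435843-65436042, minus strand: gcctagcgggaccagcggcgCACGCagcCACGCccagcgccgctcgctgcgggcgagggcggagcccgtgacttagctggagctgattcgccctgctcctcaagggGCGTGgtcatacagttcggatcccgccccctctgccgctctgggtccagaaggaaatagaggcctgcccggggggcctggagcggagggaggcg

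The motifs were AGGTCA and AGTTCA, half-sites of nuclear receptors, GCGTG, the core of the aryl hydrocarbon receptor element, GTTAAT, a half-site of hepatocyte nuclear factor 1, and TATAAA. Both strands of the 250 bases before the start were searched, in 32851 promoters of which 9 belonged to members. GTTAAT, held by 6.43% of all promoters, occurred on the opposite strand (as ATTAAC) 41 bases before the start of Ugt1a1, 50 before Ugt1a6a and 91 before Ugt1a9. AGTTCA (11.8% of promoters) lay 162 bases before Ugt1a1, and AGGTCA (14%) lay 201 bases before Ugt1a9, 215 before Ugt2b35 and 25 before Ugt2b36. GCGTG (28.2%) occurred 3 times before Ugdh, at 180, 172 and 94 bases, and once before Ugt1a5, at 49. TATAAA (12.4%) was in none of the 9 windows. These are matches of letters in a short window and not measured sites.

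Libraries held 11827994 to 37998473 counts over all transcripts. The wild-type TCPOBOP libraries, at 30228724 counts or more, were the deepest and the other 3 groups did not exceed 19483951. Hepatocyte markers summed to at least 26899 CPM in every library, with Alb at 11808 CPM or more in each. Xist had at most 6 counts in any library and Ddx3y at least 204. Expression is given in CPM, counts scaled to a common library total with TMM factors, as mean ± SD over 4 mice (n = 4), and changes as log2 ± standard error. Tests were edgeR quasi-likelihood F tests with Benjamini-Hochberg adjustment over all genes, and a gene was called at an adjusted p under 0.05.

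Ugdh, the gene of UDP-glucose dehydrogenase, rose with TCPOBOP in wild-type liver and was not called in humanized liver. It was at 189.9, 167.1, 227.7 and 225.2 CPM in wild-type vehicle replicates 1 to 4 and at 438.2, 491.0, 508.3 and 649.1 CPM in wild-type TCPOBOP. Every treated library thus lay far above every vehicle library. The rise was 2.58-fold, 1.37 ± 0.18 on the log2 scale (edgeR adjusted p = 3.98e-05). Humanized vehicle livers held 205.9, 259.5, 307.0 and 239.7 CPM and humanized TCPOBOP livers 280.0, 234.5, 281.9 and 302.3 CPM, groups that overlapped throughout. Their difference was 0.12 ± 0.17 (adjusted p = 0.786), with a 95% interval of -0.25 to 0.48. The difference between the strains' responses, the interaction, was -1.25 ± 0.25 (adjusted p = 0.00456), and Ugdh was the 1 member of 10 called in it on the deposited rows. Under vehicle the strains did not differ at the threshold (0.32 ± 0.17 higher in humanized liver, adjusted p = 0.198). Under TCPOBOP Ugdh was 1.90-fold lower in humanized liver (-0.93 ± 0.18, adjusted p = 0.00103).

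**Figure D1:**
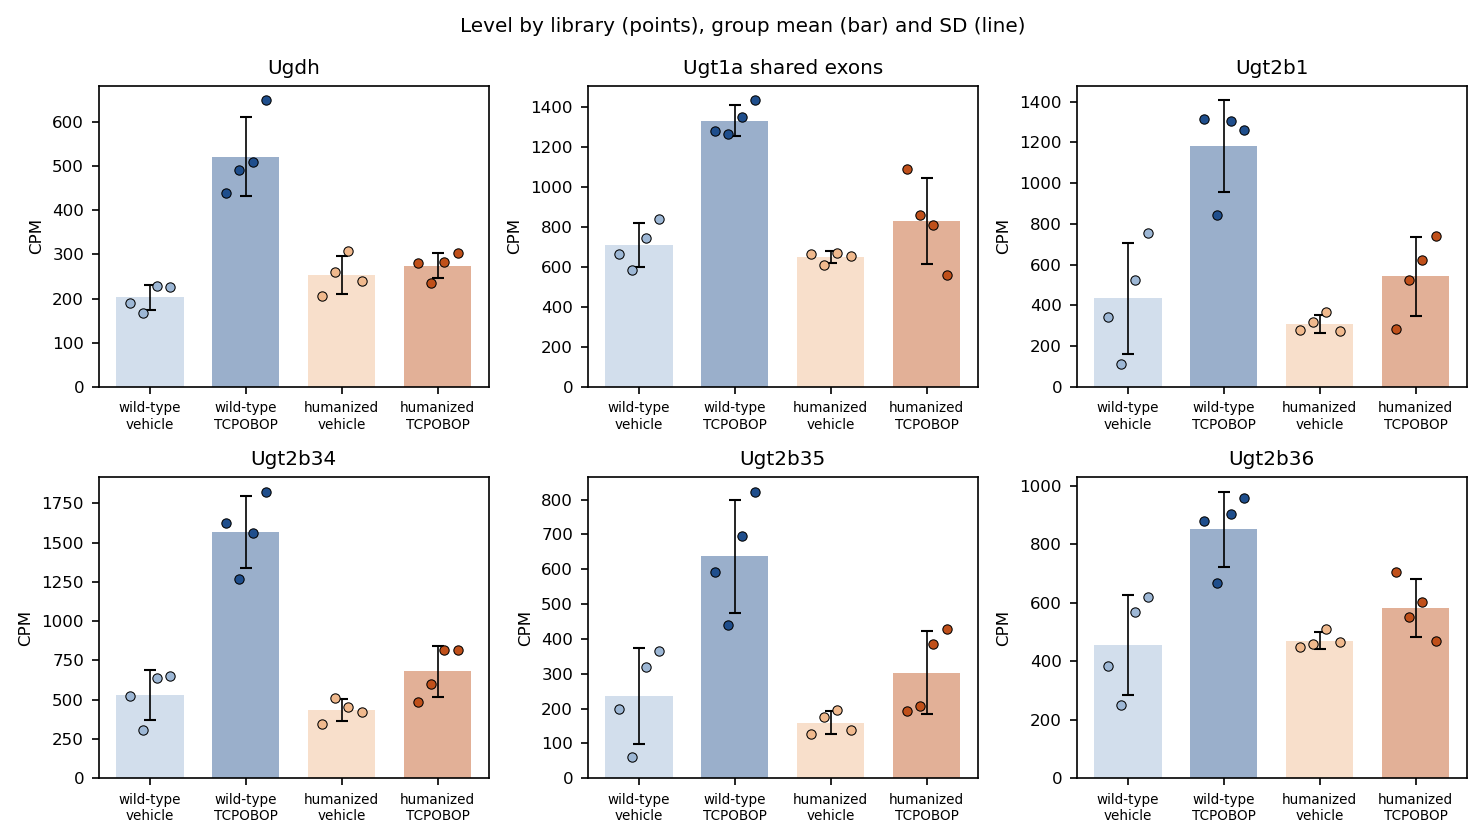
Level in CPM (y axis, from 0) of Ugdh, of the Ugt1a shared exons and of 4 Ugt2b genes in each group; points are libraries in replicate order, bars are means and lines are SDs (n = 4). All 4 wild-type TCPOBOP libraries lie above all 4 wild-type vehicle libraries in each panel, while the humanized groups overlap.

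All 10 members were called higher with TCPOBOP in wild-type liver, against 8.1% of all genes tested. The groups did not overlap for any of the 10, against 12.5% of all genes with every TCPOBOP library above every vehicle library. The median log2 change of the members was 0.99, and that of all genes -0.02. The members were chosen with earlier results of these data known, so these shares are no test of the family. Of 9 other UDP-glycosyltransferase genes tested, 3 were called higher and 3 lower. The 5 Ugt1a rows are largely a single measurement, however, because each holds the counts of the shared exons. The lowest Ugt1a row of a library, which was that of Ugt1a2 or Ugt1a7c, was taken as the level of the shared exons. This assumes that the gene of the lowest row is nearly silent in liver. The subtraction itself cannot show that, and it was not tested. The part taken as shared made up 69.2 to 95.2% of the Ugt1a1 row and 89.4 to 99.8% of the rows of the other 4 genes.

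The shared exons, which report transcripts of the whole locus, were at 667.1, 585.4, 745.7 and 841.3 CPM in wild-type vehicle livers and 1279, 1265, 1353 and 1434 CPM in wild-type TCPOBOP livers. The treated libraries all lay above the vehicle libraries. The row of Ugt1a2, which stands for the shared exons, rose by 0.91 ± 0.19 (adjusted p = 0.00283), and the 5 member rows rose by 0.87 to 1.01. Humanized vehicle livers held 664.8, 609.4, 671.4 and 652.7 CPM and humanized TCPOBOP livers 1090, 859.6, 809.6 and 560.7 CPM. Of the latter, 3 lay above all vehicle libraries and replicate 4 lay below them. The member rows were 0.35 to 0.45 higher in humanized TCPOBOP liver and none was called.

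Counts beyond the shared exons, that is a row minus the shared level in the same library, come from a gene's own first exon (2 exons for Ugt1a6a and Ugt1a6b) and tell the 5 genes apart. Read this way, 2 of the 5 Ugt1a genes rose in wild-type liver. With these counts 7 of 10 members were called higher, against 8.05% of all genes, the other 5 being the 4 Ugt2b genes and Ugdh.

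Ugt1a1, whose enzyme conjugates bilirubin, was the most abundant by first-exon counts per kilobase in every group. It was at 211.6, 212.7, 256.6 and 287.3 CPM beyond the shared exons in wild-type vehicle and 553.7, 564.1, 593.8 and 605.8 CPM in wild-type TCPOBOP livers. These groups did not overlap and the change was 1.26 ± 0.34 (2.39-fold, adjusted p = 0.0171). Without wild-type vehicle replicate 1 its adjusted p was 0.0540.

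Ugt1a9, whose enzyme acts on phenols and many drugs, changed most among the Ugt1a genes. It was at 39.0, 33.8, 28.2 and 39.3 CPM in wild-type vehicle livers and 121.7, 111.2, 141.0 and 169.9 CPM in wild-type TCPOBOP livers. The lowest treated library was thus well above the highest vehicle library. The rise was 3.88-fold, 1.96 ± 0.40 on the log2 scale (adjusted p = 0.00258).

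The other 3 first exons were not called in wild-type liver. Ugt1a6a, a phenol-conjugating gene, was at 30.1 ± 6.37 CPM with vehicle and 36.3 ± 1.95 CPM with TCPOBOP (0.27 ± 0.36, adjusted p = 0.724, 95% interval -0.49 to 1.03). Ugt1a6b was at 32.7 ± 9.71 and 28.1 ± 2.85 CPM (-0.22 ± 0.43, adjusted p = 0.821, interval -1.13 to 0.69). Its RefSeq model ends at 88218998 and those of the other members at 88220002, so its own-exon level may be a lower bound if reads were counted to those ends. Ugt1a5 was at 26.0 ± 4.89 and 24.8 ± 6.87 CPM (-0.07 ± 0.45, adjusted p = 0.952, interval -1.003 to 0.87). The whole rows of these 3 genes were nonetheless called higher, at 0.89, 0.87 and 0.88, with 95.6 to 97.5% of the Ugt1a6a row and like shares of the other 2 rows lying in the shared exons of these 8 libraries.

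**Figure D2:**
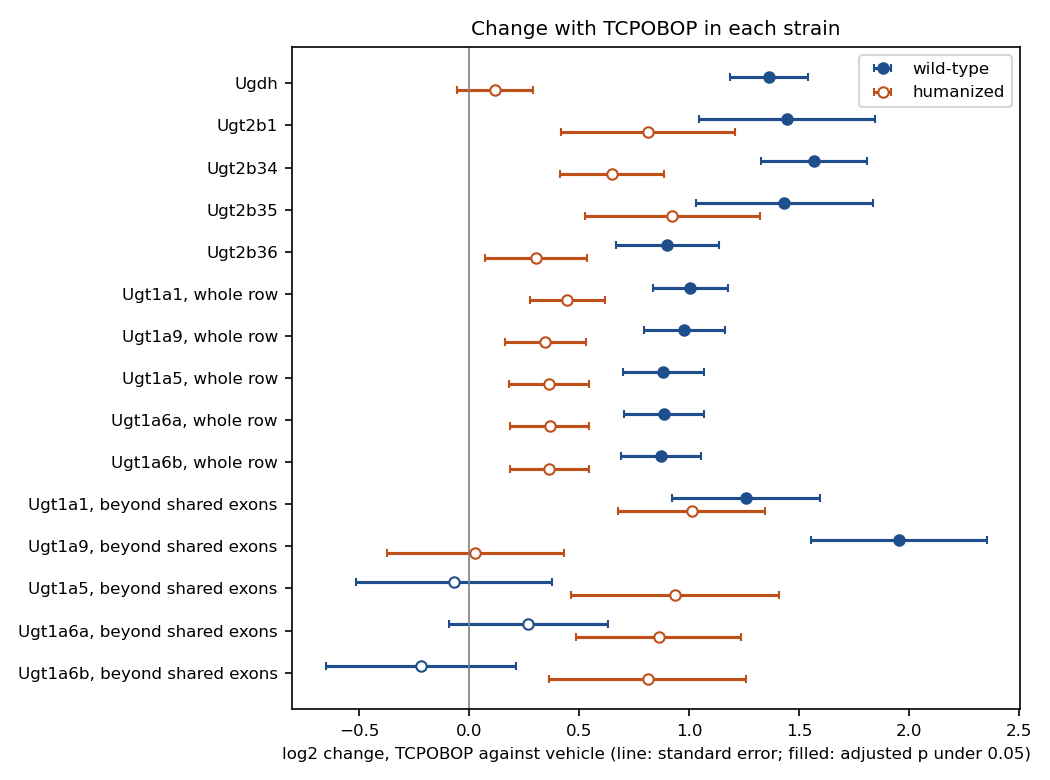
Log2 change with TCPOBOP (x axis) in wild-type and humanized liver for Ugdh, the Ugt2b genes and the Ugt1a genes, the latter for whole rows and for counts beyond the shared exons; lines are standard errors and filled points have an adjusted p under 0.05. In wild-type liver the whole Ugt1a rows all sit near 1, whereas beyond the shared exons Ugt1a9 is at 1.96 and Ugt1a5 at -0.07.

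Before the humanized values, a measure of the libraries has to be given, because first exons lie at the 5′ end of the transcript. A 5′ coverage index was computed in 26 genes outside the Ugt1a locus that have a longer RefSeq isoform with extra sequence at the 5′ end. It is the median log2 ratio of counts in that extra part to counts in the rest, centred for each gene over the 16 libraries. The ratio of a gene also depends on how much of the longer isoform is made. The part of isoform use in the index was not tested. The index was 0.30 to 0.54 in all 8 wild-type libraries. It was -0.75, -0.17, -0.54 and -0.58 in humanized vehicle and -1.74, -0.41, 0.53 and 0.45 in humanized TCPOBOP replicates 1 to 4. Humanized TCPOBOP replicates 3 and 4 were thus within the wild-type range, and the other 6 humanized libraries were below it.

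Ugt1a first-exon counts per 100 shared-exon counts followed the same division of the libraries. They were 50.3 to 54.4 in wild-type vehicle and 60.1 to 60.6 in wild-type TCPOBOP livers. In humanized vehicle livers they were 14.1, 32.6, 18.0 and 20.9, and in humanized TCPOBOP livers 6.61, 24.8, 53.9 and 52.4. The part of 5′ coverage in the first-exon differences that involve humanized libraries was not tested. Where humanized TCPOBOP libraries enter, values without replicates 1 and 2 or without 3 and 4 are given for the main results. Under vehicle no such value can be had, since all 4 humanized libraries lie below all wild-type libraries in the index, and there strain and 5′ coverage cannot be told apart. In bulk liver, fewer cells of a type and less RNA per cell cannot be told apart.

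**Figure D3:**
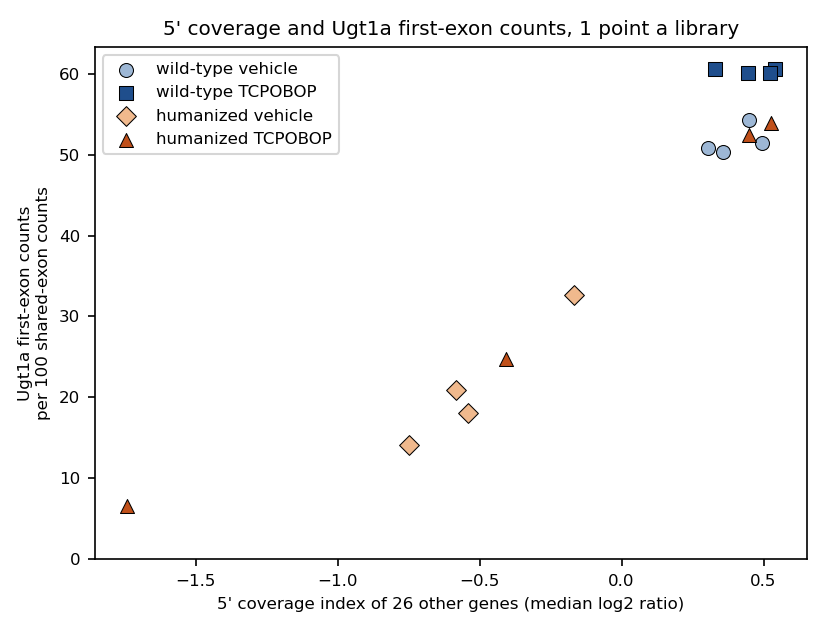
Ugt1a first-exon counts per 100 shared-exon counts (y axis, from 0) against the 5′ coverage index of 26 other genes (x axis, median log2 ratio), 1 point a library. The 8 wild-type libraries and humanized TCPOBOP replicates 3 and 4 lie at the upper right, and the other 6 humanized libraries lie lower on both axes.

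In humanized liver TCPOBOP gave no call among the 10 members by edgeR, where 2.52% of all genes were called in either direction. At an unadjusted p under 0.05 there were 3 members, against 17.9% of all genes. DESeq2 called 1, Ugt1a1 (0.49, adjusted p = 0.0242), and 4.06% of all genes. The median log2 change of the members was 0.37 and that of all genes 0.02. With counts beyond the shared exons the number called was again 0 by edgeR (2.5% of all genes), with 4 at an unadjusted p under 0.05 (17.9% of all genes), and DESeq2 was not run on those counts.

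The first exon of Ugt1a1 was at 61.9, 121.0, 78.4 and 80.2 CPM in humanized vehicle and 54.9, 147.2, 300.5 and 185.3 CPM in humanized TCPOBOP livers. Replicate 1 lay below all vehicle libraries and the other 3 lay above them, a difference of 1.01 ± 0.34 (adjusted p = 0.117). Ugt1a9 was at 10.2, 19.4, 13.5 and 19.2 CPM with vehicle and 3.54, 9.49, 30.8 and 19.0 CPM with TCPOBOP (0.03 ± 0.40, adjusted p = 0.987). Only replicate 3 exceeded all vehicle libraries. Ugt1a5, Ugt1a6a and Ugt1a6b differed by 0.94, 0.86 and 0.81 without a call.

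These values rested on which libraries were kept. Without humanized TCPOBOP replicate 1, the library with the lowest index, 5 members were called higher in humanized liver with counts beyond the shared exons, against 5.07% of all genes. They were Ugt1a1 (1.34, adjusted p = 0.00631), Ugt1a5 (1.32), Ugt1a6a (1.20), Ugt1a6b (1.19) and Ugt2b34 (0.81). Without replicates 1 and 2 there were 6, with Ugt2b35 added, and Ugt1a1 was at 1.54 (adjusted p = 0.000882). Calls rose over all genes too in that fit, to 11.4% higher. The 2 libraries then left have indices of 0.45 and 0.53, against -0.75 to -0.17 in the vehicle group. Without replicates 3 and 4 there was no call by edgeR among members, against 3.52% of all genes in either direction, with 1 at an unadjusted p under 0.05, and Ugt1a9 stood at -1.25 (adjusted p = 0.0623).

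**Figure D4:**
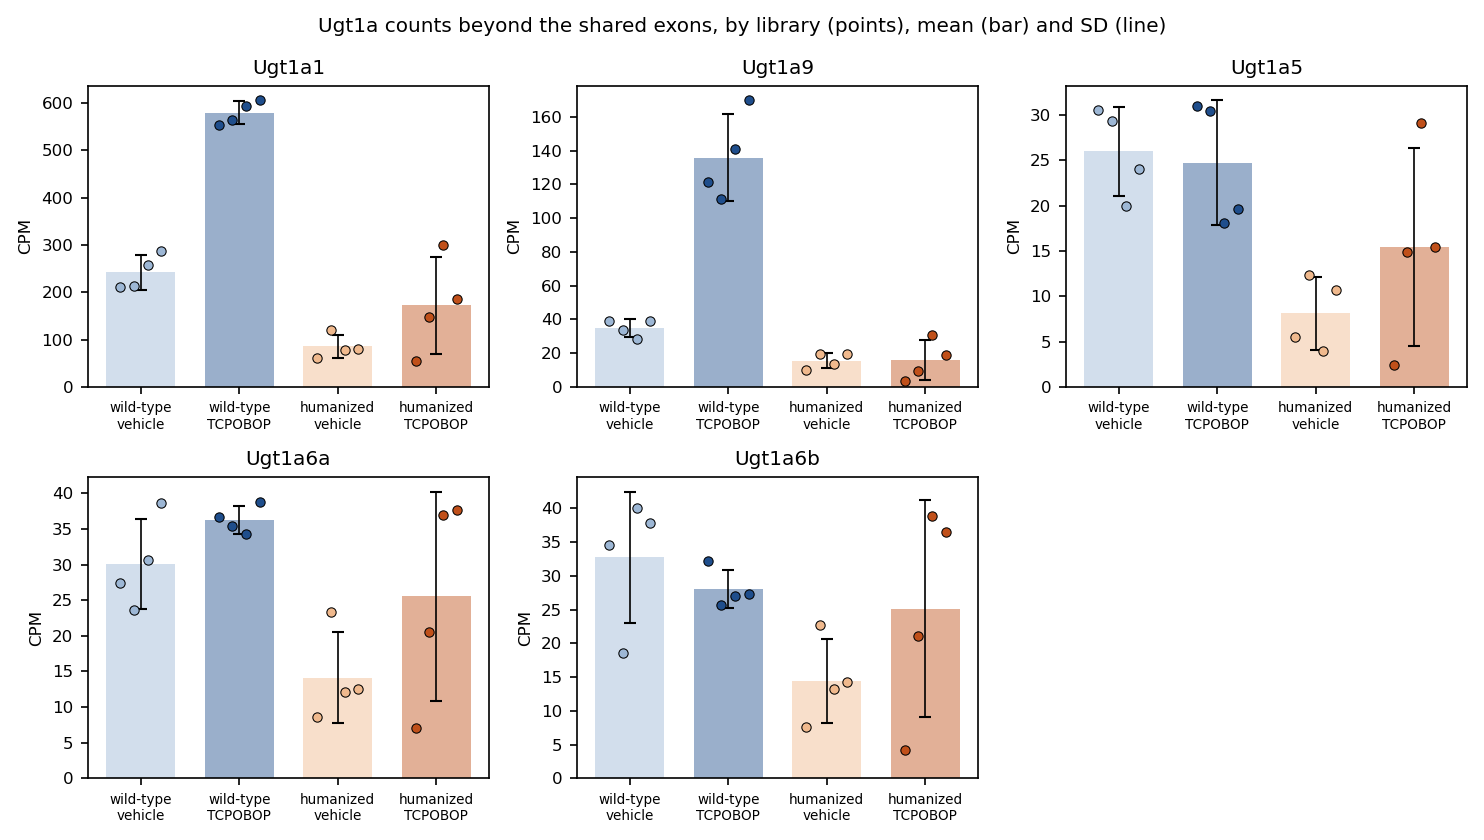
Counts beyond the shared exons in CPM (y axis, from 0) for the 5 Ugt1a genes by group; points are libraries in replicate order, bars are means and lines are SDs (n = 4). Ugt1a9 stands out in wild-type TCPOBOP liver at 111.2 to 169.9 CPM, and the humanized TCPOBOP libraries are widely spread in every panel.

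The makeup of the first-exon counts compares the 5 genes within a library, where their first exons lie at like distances from the 3′ end. This measure was chosen after the data were seen. The 5 shares of a library add up to the whole, so a share can move while the gene's own level does not. Ugt1a9 took 11.4, 10.6, 7.50 and 9.20% of first-exon counts in wild-type vehicle and 15.7, 14.5, 17.3 and 19.7% in wild-type TCPOBOP livers. In humanized liver it took 10.8, 9.78, 11.1 and 14.1% with vehicle and 4.92, 4.45, 7.07 and 6.45% with TCPOBOP. TCPOBOP thus went with a larger share of Ugt1a9 in wild-type and a smaller share in humanized liver, with no overlap between the groups in either strain. Its level in humanized liver was 15.6 ± 4.54 CPM with vehicle and 15.7 ± 11.9 CPM with TCPOBOP. The differences were 7.14 and -5.72 percentage points, each with p = 0.0286 in a two-sided exact permutation test, the smallest p that 4 against 4 allows. Adjusted over 20 such tests they were at 0.0571, as was every comparison without overlap, so none passed 0.05.

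Ugt1a1 held 66.0 ± 2.98% of first-exon counts in wild-type vehicle and 72.1 ± 1.47% in wild-type TCPOBOP livers (exact permutation p = 0.0286, adjusted 0.0571). In humanized livers it held 62.6 ± 3.44% and 69.3 ± 5.40% (exact permutation p = 0.0857, adjusted 0.143). The share of Ugt1a6a was 8.16 ± 0.67% in wild-type vehicle, 4.51 ± 0.22% in wild-type TCPOBOP, 10.02 ± 1.22% in humanized vehicle and 10.19 ± 1.86% in humanized TCPOBOP livers. In the wild-type strain all 4 treated libraries lay below all vehicle libraries in this share, while the level of the Ugt1a6a first exon was not called (0.27, above). The share of Ugt1a6b was 8.85 ± 2.15% and 3.50 ± 0.44% in wild-type livers, again with no call in its level. The share of Ugt1a5 was 7.28 ± 2.08% and 3.12 ± 1.00% there and 5.77 ± 1.88% and 5.55 ± 1.69% in humanized livers.

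**Figure D5:**
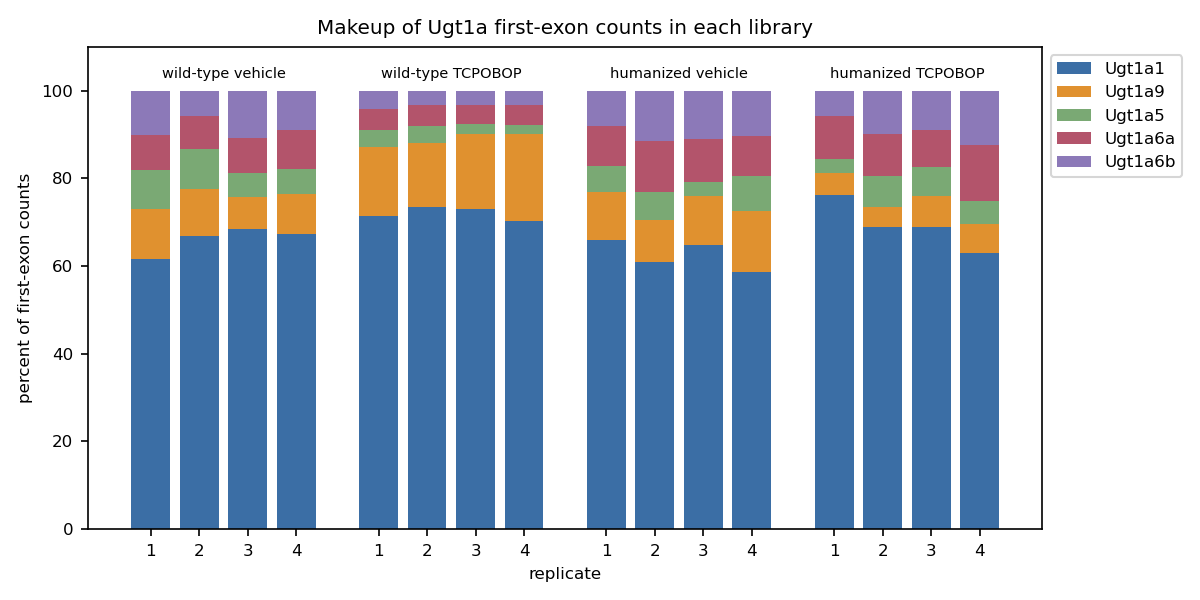
Percent of Ugt1a first-exon counts (y axis) that each of the 5 genes took, 1 stacked bar a library. The Ugt1a9 segment is at 14.5 to 19.7% in wild-type TCPOBOP and at 4.45 to 7.07% in humanized TCPOBOP livers, and Ugt1a1 is the largest segment in all 16 libraries.

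The Ugt2b genes, whose enzymes conjugate steroids, fatty acids and drugs, are counted over whole separate transcripts. All 4 were called higher with TCPOBOP in wild-type liver and none in humanized liver. Ugt2b34 was at 522.7, 305.9, 637.4 and 648.7 CPM in wild-type vehicle livers and 1622, 1266, 1561 and 1823 CPM in wild-type TCPOBOP livers. Every treated library lay above every vehicle library. It rose 2.97-fold (1.57 ± 0.24, adjusted p = 0.000201), and it was called without any 1 of the 16 libraries. In humanized livers it was at 344.0, 508.3, 456.4 and 424.4 CPM with vehicle and 487.4, 600.9, 816.9 and 816.7 CPM with TCPOBOP, where 3 libraries lay above all vehicle libraries (0.65 ± 0.24, adjusted p = 0.154).

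Ugt2b1 was at 343.1, 110.2, 525.1 and 756.8 CPM in wild-type vehicle livers and 1313, 842.9, 1304 and 1260 CPM in wild-type TCPOBOP livers. Vehicle replicate 2 was low and the groups still did not overlap. The rise was 1.44 ± 0.40 (adjusted p = 0.0217). In humanized livers it was at 309.0 ± 43.2 CPM with vehicle and 542.7 ± 193.6 CPM with TCPOBOP (0.81 ± 0.40, adjusted p = 0.293). The humanized TCPOBOP replicates 1 to 4 were at 283.3, 525.4, 623.7 and 738.2 CPM.

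Ugt2b35 was at 197.7, 60.3, 319.5 and 365.8 CPM in wild-type vehicle livers and 591.1, 440.4, 694.7 and 822.2 CPM in wild-type TCPOBOP livers. Vehicle replicate 2 was again the lowest of the 16 libraries. The gene rose by 1.43 ± 0.40 (adjusted p = 0.0230). In humanized livers it was at 128.3, 176.2, 197.1 and 138.0 CPM with vehicle and 192.7, 208.7, 384.2 and 427.9 CPM with TCPOBOP (0.92 ± 0.40, adjusted p = 0.231). Here replicates 3 and 4 lay well above replicates 1 and 2, the same division as in the 5′ index. Replicates 3 and 4 of humanized TCPOBOP also lay above 1 and 2 for Ugt2b34 and Ugt2b1, though not for Ugt2b36. The part of the index in these differences was not tested.

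Ugt2b36 rose least of the 4, from 456 ± 171.2 to 851.9 ± 127.8 CPM in wild-type liver (0.90 ± 0.24, adjusted p = 0.0149). In humanized livers it was at 471.1 ± 28.3 and 582.1 ± 98.4 CPM (0.31 ± 0.23, adjusted p = 0.535). The wild-type calls of Ugt2b1, Ugt2b35 and Ugt2b36 were lost without vehicle replicate 1 or TCPOBOP replicate 4, with adjusted p of 0.0541 to 0.0883. Those of Ugt2b1 and Ugt2b35 were also lost without TCPOBOP replicate 3 (0.0560 and 0.0577).

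Per kilobase of transcript, Ugt2b36 was the highest of the 4 Ugt2b members in wild-type vehicle liver at 241.5 ± 90.7 CPM, followed by Ugt2b34 at 173.3 ± 52.1, Ugt2b1 at 168.6 ± 106.6 and Ugt2b35 at 70.2 ± 40.7. The first 3 were within their spread of one another. With TCPOBOP in the wild-type strain the order was Ugt2b34 (513.9 ± 75.6), Ugt2b1 (458.6 ± 87.8), Ugt2b36 (451.2 ± 67.7) and Ugt2b35 (189.7 ± 48.1). Ugdh was at 79.4 ± 11.5 CPM per kilobase with vehicle and 204.6 ± 35.3 with TCPOBOP. Among Ugt1a first exons in wild-type vehicle liver, Ugt1a1 was at 265.1 ± 40.2 and the other 4 were at 29.2 to 39.9 CPM per kilobase, within their spread of one another.

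The interaction asked whether the strains responded differently. On the deposited rows 1 member, Ugdh, was called lower in it, against 3.98% of all genes, and the members' median was -0.58 against 0.00 for all genes. With counts beyond the shared exons there were 2, Ugdh and Ugt1a9, against 3.99% of all genes. For Ugt1a9 the interaction was -1.93 ± 0.56 (adjusted p = 0.0439). It was called at -1.24 without humanized TCPOBOP replicates 1 and 2 (adjusted p = 0.0212) and at -3.21 without replicates 3 and 4 (adjusted p = 0.000579). Its adjusted p was 0.0531 or more in 12 of the 16 fits that leave out 1 library. For Ugt1a1 beyond the shared exons the interaction was -0.25 ± 0.47 (adjusted p = 0.828, 95% interval -1.23 to 0.74). For the Ugt2b genes it was -0.51 to -0.92 without a call, the widest interval being that of Ugt2b35, -1.68 to 0.66.

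Between the strains under vehicle, none of the 10 rows was called by edgeR, against 16.1% of all genes in either direction. At an unadjusted p under 0.05 there was 1, Ugt1a1, against 34.4% of all genes. DESeq2 called it (-0.41, adjusted p = 0.0337), and 15% of all genes. With counts beyond the shared exons 2 members were called lower in humanized liver, against 8.96% of all genes. Ugt1a1 was 2.84-fold lower (-1.50 ± 0.34, adjusted p = 0.0116) and Ugt1a5 3.19-fold lower (-1.67 ± 0.47, adjusted p = 0.0264). The first-exon counts of Ugt1a1, Ugt1a5, Ugt1a6a and Ugt1a9 were lower in all 4 humanized vehicle libraries than in any wild-type vehicle library, as was the 5′ index of those libraries. The share of all genes without overlap was not computed for this comparison, so the lack of overlap is not read as particular to these genes. The call of Ugt1a5 was lost without wild-type vehicle replicate 1 or humanized vehicle replicate 1, 3 or 4 (adjusted p of 0.0519 to 0.0864), and without wild-type vehicle replicate 2 the Ugt2b35 row was called lower (-0.89, adjusted p = 0.0468). The level of the shared exons was 709.9 ± 109.3 CPM in wild-type and 649.6 ± 27.9 CPM in humanized vehicle livers, groups that overlapped.

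Under TCPOBOP 8 of the 10 rows were called lower in humanized liver, against 12.8% of all genes. The members' median difference was -0.86 and that of all genes 0.01. Ugt2b34 was 2.30-fold lower (-1.20 ± 0.24, adjusted p = 0.00152) and the Ugt1a1 row 1.91-fold lower (-0.93 ± 0.17, adjusted p = 0.000724). Ugt2b35 (-1.07, adjusted p = 0.0577) and Ugt2b36 (-0.55, adjusted p = 0.0927) were not called. With counts beyond the shared exons 5 members were called lower, against 12.7% of all genes: Ugt1a9, Ugt1a1, Ugt2b1, Ugt2b34 and Ugdh. Ugt1a9 was 8.55-fold lower (-3.10 ± 0.42, adjusted p = 4.98e-05), and without humanized TCPOBOP replicates 1 and 2 the difference was -2.43 (adjusted p = 0.000106). Ugt1a1 was 3.36-fold lower (-1.75 ± 0.34, adjusted p = 0.00127) and -1.24 without those replicates (adjusted p = 0.00492). The comparisons share their groups with those above, so the values are not separate evidence.

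Genes that supply UDP-glucuronate and carry it into the endoplasmic reticulum gave few calls beside Ugdh. Of the 4 genes Pgm1, Pgm2, Ugp2 and Slc35d1, 1 was called in wild-type liver with TCPOBOP, Pgm2, a phosphoglucomutase gene, at 5.79 ± 1.84 and 10.8 ± 1.96 CPM (0.91 ± 0.25, adjusted p = 0.0193). Pgm2 was also lower in humanized than in wild-type liver under vehicle (-0.88, adjusted p = 0.0341) and TCPOBOP (-1.85, adjusted p = 6.99e-05). Ugp2, which makes UDP-glucose, was at 218.9 ± 131.1 and 228.6 ± 78.6 CPM in wild-type liver (0.06 ± 0.44, adjusted p = 0.955). Slc35d1, a transporter of UDP-glucuronate, was at 137.7 ± 31.9 and 196.5 ± 26.7 CPM (0.51 ± 0.21, adjusted p = 0.132), with all 4 treated libraries above all vehicle libraries. With TCPOBOP in humanized liver 0 of these 4 genes were called by edgeR, and 0 had an unadjusted p under 0.05, against 17.9% of all genes.

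Of 8 genes that use UDP-glucuronate or break glucuronides down, 7 were tested and 1 fell in wild-type liver. This was Gulo, the last enzyme of vitamin C synthesis, which draws on glucuronate, at 413.2 ± 35.6 and 276.5 ± 55.0 CPM (-0.58 ± 0.16, adjusted p = 0.0222). It was also called in the interaction (1.02 ± 0.23, adjusted p = 0.0105), with 283.8 ± 19.7 CPM in humanized vehicle and 383.9 ± 41.4 CPM in humanized TCPOBOP livers. Gusb, the gene of beta-glucuronidase, was lower in humanized liver under vehicle (-0.75, adjusted p = 0.0134) and under TCPOBOP (-0.63, adjusted p = 0.0144). Under TCPOBOP 4 genes of this list were higher in humanized liver, among them Xylb, Rgn and Dcxr, at 0.66, 0.89 and 0.99.

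Transporters carry glucuronides out of hepatocytes into bile or blood. Of 7 tested, 3 rose and 1 fell with TCPOBOP in wild-type liver, and 1 rose in humanized liver. Over all genes 8.1% were called higher in wild-type liver and 2.52% in either direction in humanized liver. Abcc4, a basolateral efflux pump, rose from 4.76 ± 1.62 to 39.9 ± 14.4 CPM (3.05 ± 0.38, adjusted p = 2.59e-05), and its interaction was -3.78 ± 0.52 (adjusted p = 0.000311). Abcc3, another basolateral pump for glucuronides, rose from 465.2 ± 184.8 to 1073 ± 166.6 CPM (1.21 ± 0.24, adjusted p = 0.00199). Its interaction was -1.02 ± 0.33 (adjusted p = 0.0717). Abcc2, the canalicular pump for bilirubin glucuronides, rose from 648.2 ± 82.6 to 1332 ± 192.6 CPM (1.04 ± 0.29, adjusted p = 0.0225). In humanized liver it was at 402.1 ± 44.1 and 620.9 ± 320.9 CPM (0.63 ± 0.29, adjusted p = 0.265), with an interaction of -0.41 ± 0.41 (adjusted p = 0.625). Abcc4 was already higher in humanized than in wild-type liver under vehicle (1.30, adjusted p = 0.0281), and 2 of the 7 transporters were called lower there. The uptake carrier Slco1a1 fell in wild-type liver (-1.84, adjusted p = 0.0218) and rose in humanized liver (2.02, adjusted p = 0.0480), with an interaction of 3.86 ± 0.73 (adjusted p = 0.00324). It started from unlike levels. Slco1a1 was at 364.1 ± 219.8 CPM with vehicle and 101.4 ± 31.4 CPM with TCPOBOP in wild-type liver. In humanized liver it was at 59.9 ± 23.7 and 241.8 ± 102.2 CPM. Of 3 genes of heme breakdown to bilirubin, Hmox1, Blvra and Blvrb, 0 were called by edgeR with TCPOBOP in either strain, and 1 in wild-type and 0 in humanized liver at an unadjusted p under 0.05.

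The remaining UDP-glycosyltransferase genes moved in both directions. Ugt2b5, named here after its values were seen, was at 478 ± 233.9 and 572.1 ± 96.4 CPM in wild-type liver and was not called (0.26 ± 0.30, adjusted p = 0.675). Of 13 listed, 12 had a row and 9 were tested. In wild-type liver 3 were called higher, Ugt1a2, Ugt1a7c and Ugt1a10, whose rows lay at or near the level taken as shared, and 3 were called lower. The latter, of which the second and the third are named here after their values were seen, were Ugt2a3 (-0.83 ± 0.22, adjusted p = 0.0144), Ugt3a2 (-0.87, adjusted p = 0.0364) and Ugt2b38 (-2.32, adjusted p = 0.0440). Ugt2a3 was at 223.6 ± 78.6 and 125.6 ± 13.7 CPM and Ugt3a2 at 220.1 ± 76.6 and 120.1 ± 22.5 CPM. For the same 3 genes the interaction was positive, 1.15, 1.52 and 4.61, with adjusted p of 0.0272, 0.0189 and 0.0168. Ugt2b38 was low, at 9.78 ± 10.7 CPM in wild-type vehicle livers and 1.99 ± 1.08 CPM in wild-type TCPOBOP livers, with groups that overlapped. Beyond the shared exons Ugt1a10 was also called higher with TCPOBOP in wild-type liver (1.03 ± 0.295, edgeR adjusted p = 0.0258). It was low there, with 7 to 16 counts in vehicle and 44 to 55 counts in TCPOBOP libraries.

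Among 8 transcription factors known to regulate Ugt genes, mouse Nr1i3 and Nr1i2, the genes of CAR and PXR, checked the strain labels. Nr1i3 was at 93.4 to 107.1 CPM in wild-type and 1.63 to 2.70 CPM in humanized vehicle livers, and Nr1i2 at 108.7 to 194.7 and 17.8 to 20.8 CPM. The strains differed in other regulators too. Under vehicle 4 of the 8 were called lower in humanized liver, against 16.1% of all genes in either direction. Ppara was at 283.4 ± 83.5 CPM in wild-type and 144.2 ± 5.25 CPM in humanized vehicle livers. Rxra, named here after its values were seen, was at 652.5 ± 105 and 427 ± 58.0 CPM. In the interaction 2 of the 8 were called higher, as were 449 of 12911 genes. With TCPOBOP in wild-type liver Nr1i3 fell (-0.94 ± 0.19, adjusted p = 0.00198), Ppara fell (-1.21, adjusted p = 0.0111) and Ahr, the aryl hydrocarbon receptor gene, rose from 80.2 ± 30.2 to 176.0 ± 25.0 CPM (1.13 ± 0.26, adjusted p = 0.00685). In humanized liver none of the 8 was called by edgeR, with 3 at an unadjusted p under 0.05, against 17.9% of all genes. Ahr was at 62.6 ± 13.8 and 84.0 ± 27.7 CPM there (0.43 ± 0.26, adjusted p = 0.426).

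Markers of other cells and of time of day also moved with the groups. Of 6 Kupffer cell markers 5 were lower in humanized than in wild-type vehicle liver, their summed level being 162.9 to 300.6 against 358.9 to 766.3 CPM. Of 5 sinusoidal endothelial markers 2 were lower, at 114.9 to 152.5 against 214.5 to 392.2 CPM. Of 6 hepatocyte markers 2, Alb and Ttr, fell with TCPOBOP in wild-type liver, where the sum was 26899 to 40042 against 58520 to 92951 CPM. Alb alone was at 11808 to 20897 against 36138 to 68972 CPM there, and the other hepatocyte markers were not called. Of 15 clock genes 6 rose and 2 fell with TCPOBOP in humanized liver, Dbp by 4.01 on the log2 scale (adjusted p = 0.00132), and 1 fell in wild-type liver. Under vehicle 3 of the 15 were higher and 5 lower in humanized than in wild-type liver, Dbp at -3.51 (adjusted p = 0.00131) and Npas2 at 3.09 (adjusted p = 0.0107), and 5 were called higher in the interaction. Over all genes 16.1% were called in either direction between the strains under vehicle, and 2.52% with TCPOBOP in humanized liver. The part of these markers in the Ugt results was not tested.

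Genes whose level across the 16 libraries was most like that of a member were found by Pearson's r of log2(CPM + 1), outside the gene lists and the Ugt families. For Ugdh they were Hnrnpab (r = 0.946), Gstm4 (0.939) and Kcnk1 (0.937). For Ugt2b34 they were Entpd5 (0.974), Mctp2 (0.971) and G3bp2 (0.967), and for Ugt2b35 Cacul1 (0.973), Ide (0.954) and Rad23b (0.954). Cyp2c54 (0.972) was nearest to the Ugt1a1 row. The rows of Ugt1a5, Ugt1a6a and Ugt1a6b had the same 3 neighbours, Cyb5a, Pgrmc1 and 4931406C07Rik, at 0.929 to 0.959. The 16 points share groups and depth, so r is a description of these libraries.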

How the data were processed

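Whole-number counts per RefSeq transcript were deposited by the authors as 1 table of 40458 accessions in 16 libraries. Per the submitters' processing notes, STAR, DESeq2 and mm10 were used. For the counting program, the strand setting and reads shared by transcripts, the labels used give no statement. Among counts of 20 or more, 74.9% were even, so a count may not be a single read. Accessions were joined to symbols through RefSeq (40219) and GENCODE (125), and 114 kept their own name. The accession with the highest mean count stood for a gene. All 16 libraries were fitted in edgeR 4.0.16 (R 4.3.3, limma 3.58.1) with filterByExpr, TMM, 4 group means and quasi-likelihood F tests, two-sided, Benjamini-Hochberg adjusted, threshold 0.05; 95% intervals used the t quantile at the degrees of freedom of the test. Residual degrees of freedom were 12, with a common BCV (biological coefficient of variation) of 0.259. Scripts were tested on simulated data. A count of 3 equalled 0.134 to 0.443 CPM.

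Counts beyond the shared exons were a Ugt1a row minus the lowest Ugt1a row of the library, fitted in place of the rows. Exon positions came from GENCODE vM21 (GRCm38, the mm10 sequence) by RefSeq accession, and promoters from RefSeq GRCm38.p6, with no entry used for Ugt1a6b. Shares were tested by exact permutation, enumerated with numpy 2.4.6, and the t quantiles came from scipy 1.17.1. Named were all members, up to 4 called genes with the smallest p per list and comparison, 7 set genes (Ugp2, Slc35d1, Abcc2, Abcc3, Nr1i3, Nr1i2 and Ahr), and the 3 genes most like a member. Members and lists were chosen with earlier results of these data known. One listed gene is not reported here. The labels do not say whether the mice were handled in separate batches, so p-values measure the spread between these samples. Alternatives were other scalings, filters, DESeq2 1.42.0, fits of the 2 groups compared, the replicate number as a block, equal depth, other accessions per gene and leaving out each library.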

Additional observations from a re-analysis of the deposited data

Results flagged for a closer look

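The response of Ugdh to TCPOBOP differed between the strains by -1.25 on the log2 scale, a tested difference (edgeR interaction, adjusted p = 0.00456). All 4 treated libraries lay above all vehicle libraries in wild-type liver, and the groups overlapped in humanized liver. The response of Ugt1a9 beyond the shared exons differed by -1.93 (edgeR interaction, adjusted p = 0.0439), with the humanized TCPOBOP libraries at 3.54, 9.49, 30.8 and 19.0 CPM. That call was lost in most fits that leave out 1 library, and the part of 5′ coverage in it was not tested. Ugt2b1 in wild-type TCPOBOP replicate 2, at 842.9 CPM, stood apart from the other 3 libraries of its group at 1260 to 1313 CPM. Of 60 groups of 4 examined, this was the 1 with a library so far from the rest, and chance gives about 1 in 20.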

How the results depend on the processing

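In wild-type liver all 10 members were called with TCPOBOP under both other scalings, no filter, DESeq2, equal depth, the other accessions and the replicate block, and 7 when only the 2 groups compared were fitted. Leaving out 1 library gave 7 to 10, or 3 to 7 of the 7 called beyond the shared exons, fewest without wild-type vehicle replicate 1. In humanized liver the 0 became 1 with DESeq2, with or without independent filtering, 0 to 1 with 1 library out and 2 without TCPOBOP replicates 1 and 2. Beyond the shared exons it became 0 to 5 and 6. The 1 in the interaction became 1 to 2 with 1 library out, 3 with library totals, 2 beyond the shared exons, 4 without replicates 1 and 2, and 2 without 3 and 4. Beyond the shared exons the 2 became 1 to 3, then 5 without replicates 1 and 2 and 3 without 3 and 4. Under vehicle the 0 became 0 to 1, 1 with DESeq2 and 2 beyond the shared exons, where it ranged from 1 to 5, was 5 without either pair of replicates and 4 with the replicate block. Under TCPOBOP the 8 became 7 to 10, and 5 beyond the shared exons (4 to 7 with 1 library out, 8 without replicates 3 and 4). Calls over all genes changed with the fit too, so these counts alone do not show a change particular to the members. With TCPOBOP in humanized liver, beyond the shared exons, 5.07% of all genes were called higher without humanized TCPOBOP replicate 1. Without its replicates 1 and 2 that share was 11.4%.

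Signs turned in these log2 changes. In wild-type liver Ugt1a5 went to -0.068 and Ugt1a6b to -0.22 beyond the shared exons, and Ugt1a5 ranged from -0.19 to 0.059 with 1 library out. In humanized liver beyond the shared exons, without replicates 3 and 4, Ugt1a6a was -0.027, Ugt1a6b -0.18 and Ugt1a9 -1.25. Ugt1a9 there was -0.10 with the replicate block and -0.53 to 0.39 with 1 library out. In the interaction Ugt1a5, Ugt1a6a and Ugt1a6b went to 1.01, 0.59 and 1.03 beyond the shared exons. Ugt1a6a was -0.30 there without replicates 3 and 4, and Ugt1a1 was 0.28 without 1 and 2 and -0.66 to 0.084 with 1 library out. With 1 library out, Ugt2b36 under vehicle ranged from -0.16 to 0.23 and Ugt1a6b under TCPOBOP, beyond the shared exons, from -0.44 to 0.21. Under TCPOBOP, without replicates 1 and 2, Ugt1a6a was 0.060 and Ugt1a6b 0.44 beyond the shared exons. Where no library was left out, the cause was not tested.

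Over all genes TCPOBOP in humanized liver gave 325 calls, 770 with DESeq2 (665 without independent filtering), 210 with the replicate block and 182 with 2 groups. The interaction gave 963, or 1471 with DESeq2. Library totals moved the median of all genes to -0.11 in humanized liver, -0.22 in the interaction and -0.17 between strains under TCPOBOP. They changed the calls higher and lower from 1046 and 646 to 1280 and 478 in wild-type liver, and from 171 and 154 to 72 and 215 in humanized liver. In the interaction they went from 449 and 514 to 295 and 928, under vehicle from 917 and 1156 to 1159 and 757, and under TCPOBOP from 1526 and 1648 to 918 and 2209. Same-numbered pairs of libraries from different groups correlated at -0.232 to 0.57, with 6 of 24 above 0.1. Their median was 0.00164 against 0.00617 for other pairs. These values do not settle whether replicate numbers pair the samples, and the labels used state no pairing. The fits without replicates 1 and 2 or 3 and 4 and the 5′ index were chosen after the data were seen. Counts beyond the shared exons limit precision most in humanized TCPOBOP replicate 1, with 16 for Ugt1a5, 24 for Ugt1a9, 28 for Ugt1a6b and 48 for Ugt1a6a. Its gene total was 8574068, where the lowest library held 6831438, and its 5′ index was the lowest at -1.74. The part of depth or 5′ coverage in these counts was not tested.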
